A study of Mus musculus with 10 samples.

Results

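The cytosolic ribosomal protein genes were followed through RNA sequencing of sorted mouse mammary epithelial cells. Members were chosen by symbol: Rpl or Rps followed by digits, with an optional final a, x or l1, plus Rplp0, Rplp1, Rplp2 and Rpsa, leaving out the S6 kinases, pseudogenes and mitochondrial proteins. This gave 78 genes, 48 of the large (60S) and 30 of the small (40S) subunit, out of 23973 genes with a usable symbol. The rule left out Rps3a1 and the ubiquitin-like fusion gene Fau, which also encode ribosomal proteins, and these are given separately. The study sorted mammary epithelial cells by flow cytometry from female mice that were wild type (WT) or knockout (KO) for Bptf, a subunit of the NURF chromatin remodelling complex. Every mouse, WT or KO, had been given tamoxifen to a total of 15 mg per kg. The 10 libraries form 5 groups of 2: luminal cells of WT and of KO mice, myoepithelial (basal) cells of WT and of KO mice, and KO cells labelled Bsecs, a name the labels do not spell out. No source used here states the Cre line, the deleted exons, the age of the mice or whether a library pools animals.

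The 6 deposited tables compare these groups in pairs and hold 1 column of values per group, 5 distinct columns in all. No source used here states if the values of a column come from 1 library or from both of the group. No value per library was used, so no difference has a replicate check, and every interval and test compares columns and not conditions. The recovered counts summed to between 2036681 and 3840462 per column, of which the ribosomal RNA precursor Rn45s took between 9.76% in the larger basal column and 32.2% in Bsecs. The basal columns carry opposite genotype names in different tables, so they are called larger and smaller by their totals (2359861 and 2036681 counts), and a difference between them says nothing here about Bptf. One label of the KO luminal libraries names wild-type mice as their source and another names the knockout. Marker genes went with the sorted luminal and basal cells: the summed level of 8 luminal markers was 52769 and 69553 in WT and KO luminal cells against 3461 (larger) and 3562 (smaller) in basal cells, and that of 9 basal markers was 24421 and 44772 in the basal columns against 175 and 702 in the luminal columns. Bsecs had sums of 56615 and 17561, each carried by a few genes. Of the luminal sum, the claudin Cldn4 gave 39058, while Krt8 was at 707 against 4904 in WT luminal cells and Kit at 0 against 59.8. Krt18 (2559 against 17668) and Elf5 (1.05 against 24.1) were also far lower. Epcam (6553 against 7510), Krt19 (6449 against 8232) and Krt7 (1288 against 2054) lay nearer to WT luminal cells. Of the basal sum, the keratins Krt5, Krt14 and Krt17 gave 3307, 8945 and 5008, while the contractile genes Acta2 (144) and Myh11 (20.0) lay far below the basal columns, where Acta2 was at 11621 and 16612 and Myh11 at 4061 and 4598. Levels are recovered counts divided by median-of-ratios factors over the 5 columns, and are called normalised reads.

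Ribosomal proteins coat the ribosomal RNA of both subunits, and each ribosome holds 1 copy of nearly every one, so their mRNAs are made in balanced amounts in growing cells. These mRNAs begin with a C followed by a run of pyrimidines, the 5′ terminal oligopyrimidine (TOP) tract, through which the mTOR pathway and LARP1 set their translation and stability. Their genes have left many processed pseudogenes in mammalian genomes, copies of the spliced mRNA whose sequence can be nearly the same as that of the parent gene.

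Because a read can match both a gene and such copies, 3 coding windows of 50 bases are shown first. They come from the GENCODE M21 transcripts of GRCm38, with coordinates of that build. They are printed 5′ to 3′ in lower case on the sense strand, with no base in capitals because the whole window was matched. The Rpl26 window lies in exon 2 (chr11:68902353-68902402, plus strand) and occurs unchanged in transcripts of 6 other annotated genes. The Rpl5 window lies in exon 5 (chr5:107903768-107903817, plus strand) and occurs in 5 others. Both windows were picked for being widely shared, so neither stands for the whole coding sequence of its gene. The Rps3 window, the first along its coding sequence that lies within 1 exon and is its own, is in exon 2 (chr7:99482651-99482700, minus strand) and occurs in no other.
Rpl26: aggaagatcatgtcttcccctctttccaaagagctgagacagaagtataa
Rpl5: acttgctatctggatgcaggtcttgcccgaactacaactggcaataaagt
Rps3: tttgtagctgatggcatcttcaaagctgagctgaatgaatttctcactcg

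The measured level of a member went with how much of its coding sequence is its own. Of the 78 members, 30 had no 50-base coding window that was absent from all other annotated genes, and their median level was 44.6 normalised reads per kb of coding sequence. Another 14 members had under 10% of such unique windows, with a median of 134 per kb, and 23 had 10% to under 50%, with a median of 640 per kb. The remaining 11 members, among them Rps3, Rps9, Rps15, Rps21, Rpl4, Rpl7l1, Rpl8, Rpl22 and Rpl32, had at least 50% unique windows and a median of 1794 per kb. Across the 78 members, which share the same 5 columns, Spearman's rho between the unique share and the level per kb was 0.68. Among the highest levels per kb were those of Rpl4 (4464), Rps3 (3151), Rpl41 (2222) and Rps15 (1972). Rpl41, the smallest ribosomal protein, had no unique window and is 1 exception to the pattern. Its mean level of 167 is divided by a coding sequence of only 75 bases. Rpl13, at 974 per kb, also had no unique window. The lowest were Rpl26, listed at 0 in all 5 columns, Rpl5 (9.24), Rpl34 (13.5), Rpl24 (14.4) and Rpl30 (15.9). Of these, Rpl5 and Rpl24 had no unique window. Rpl26 (12.7% unique), Rpl34 (27.8%) and Rpl30 (16.9%) lay far below the median of their class and go against the pattern. Rpl34 and Rps28 had under 10 counts in every column. No source used here states how the authors treated reads that match several places, and the part of that step in these levels was not tested. Differences between members in level are therefore not read as differences in mRNA, and comparisons between columns are given for all members and for the 11 largely unique ones.

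**Figure D1:**
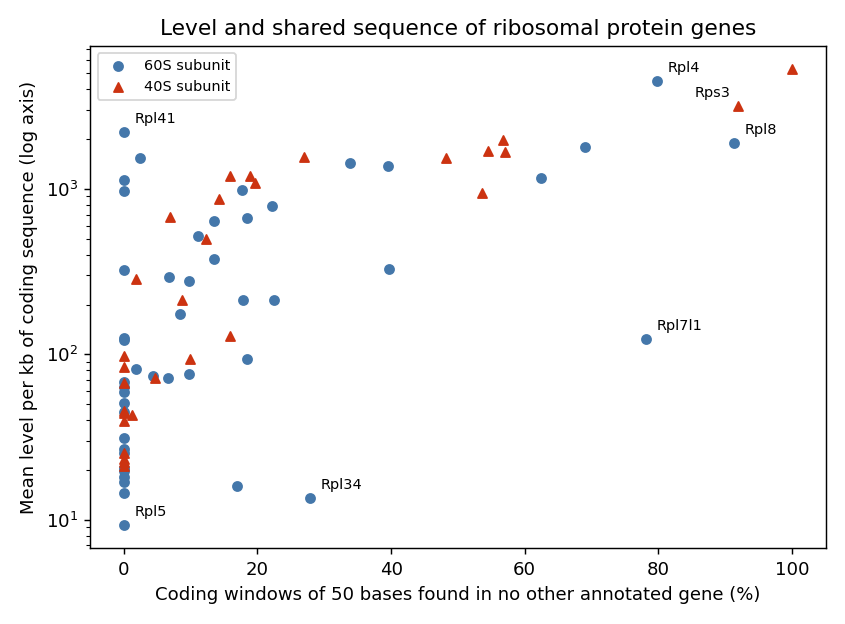
Each point is 1 of the 77 ribosomal protein genes with a count (circles 60S, triangles 40S); the horizontal axis is the percent of 50-base coding windows found in no other annotated gene and the vertical log axis the mean level over the 5 columns per kb of coding sequence. Levels climb from a median of 44.6 per kb for genes with no unique window to 1794 per kb for those with at least 50%, with Rpl41 high and Rpl7l1 and Rpl34 low for their unique share.

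Start sites were read from RefSeq (GRCm38.p6), where 58 of the 78 members had an entry. A tract, defined as a C followed by at least 6 bases that are each C or T on the sense strand and beginning within 10 bases of an annotated start, was found for 28 of the 58 (48.3%), against 14.1% of 27025 genes. The 30 bases from 12 before the annotated start are shown for 8 of these 28 members, with the match nearest to that start in capitals.
Rps9, chr7:3704029-3704058, plus strand: gccttgtCTCTCTTTgtctcgggcctgagt
Rps19, chr7:24884901-24884930, plus strand: ggagcggggtgtggagggCTCTCCCacgcg
Rps15a, chr7:118116130-118116159, minus strand: tctttctgccatCTTCCCTCgccggtgagt
Rps10, chr17:27635227-27635256, minus strand: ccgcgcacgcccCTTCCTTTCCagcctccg
Rps6, chr4:86857350-86857379, minus strand: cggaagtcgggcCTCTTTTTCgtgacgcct
Rpl10a, chr17:28328459-28328488, plus strand: gcgCCCCCCCagcggccgcaaactgcagcg
Rpl15, chr14:18270969-18270998, minus strand: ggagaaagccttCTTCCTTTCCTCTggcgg
Rpl35, chr2:39005114-39005143, minus strand: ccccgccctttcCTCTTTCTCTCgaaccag
In Rps15a, Rps10, Rps6, Rpl15 and Rpl35 this match begins at the annotated start itself. In Rps10, Rps6, Rpl15 and Rpl35 the same run of pyrimidines has an earlier C before the start, in lower case, so it also matches from there. A match describes these letters only, and a member without one is not shown to lack a TOP tract, since annotated starts can be off by some bases.

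Ribosomal protein mRNA took its smallest share in the larger basal column. Members held 0.726% of the counts without Rn45s there (exact Clopper-Pearson 95% interval 0.714 to 0.737), against 1.13% (1.11 to 1.14) in the smaller basal column, 1.32% (1.30 to 1.33) in WT luminal cells, 1.29% (1.28 to 1.30) in KO luminal cells and 1.38% (1.37 to 1.39) in Bsecs. PCR reads are not independent molecules, so these intervals cover counting error only. In bulk samples, fewer cells of a type and less RNA per cell cannot be told apart. The 11 largely unique members gave the same order at the bottom, with 0.455% for larger basal and 0.679% for smaller basal against 0.777% to 0.861% in the other 3. Both subunits were lowest in the larger basal column, the 40S members at 0.326% and the 60S members at 0.400%.

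Member by member, 46 reached a mean level of at least 50 normalised reads over the 5 columns, and the larger basal column was the lowest of the 5 for 34 of them (73.9%). Of all 6455 genes at that level it was the lowest for 19.0%. Among the 11 largely unique members it was the lowest for 10. The highest column was Bsecs for 17 of the 46 (36.96%), WT luminal cells for 16 (34.78%) and KO luminal cells for 10 (21.74%). It was smaller basal for 2 and larger basal for 1. Of all 6455 genes, 23.61% were highest in Bsecs, 18.67% in WT luminal cells and 17.96% in KO luminal cells. For smaller and larger basal the shares of all genes were 21.38% and 18.39%. With column totals without Rn45s as the scale, the larger basal column was the lowest for 27 of the 46 (58.7%) and for 8 of the 11, against 14.2% of all genes. The larger basal column also had the highest summed level of 6 fibroblast markers (2123 normalised reads, against 327 to 989 in the other columns) and of 4 endothelial markers (206 against 2.17 to 45.1), and the part of other cells in the ribosomal protein levels was not tested. Of the 7 immune markers, Cd3e was at 0 in every column and their summed level was at most 38.3.

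**Figure D2:**
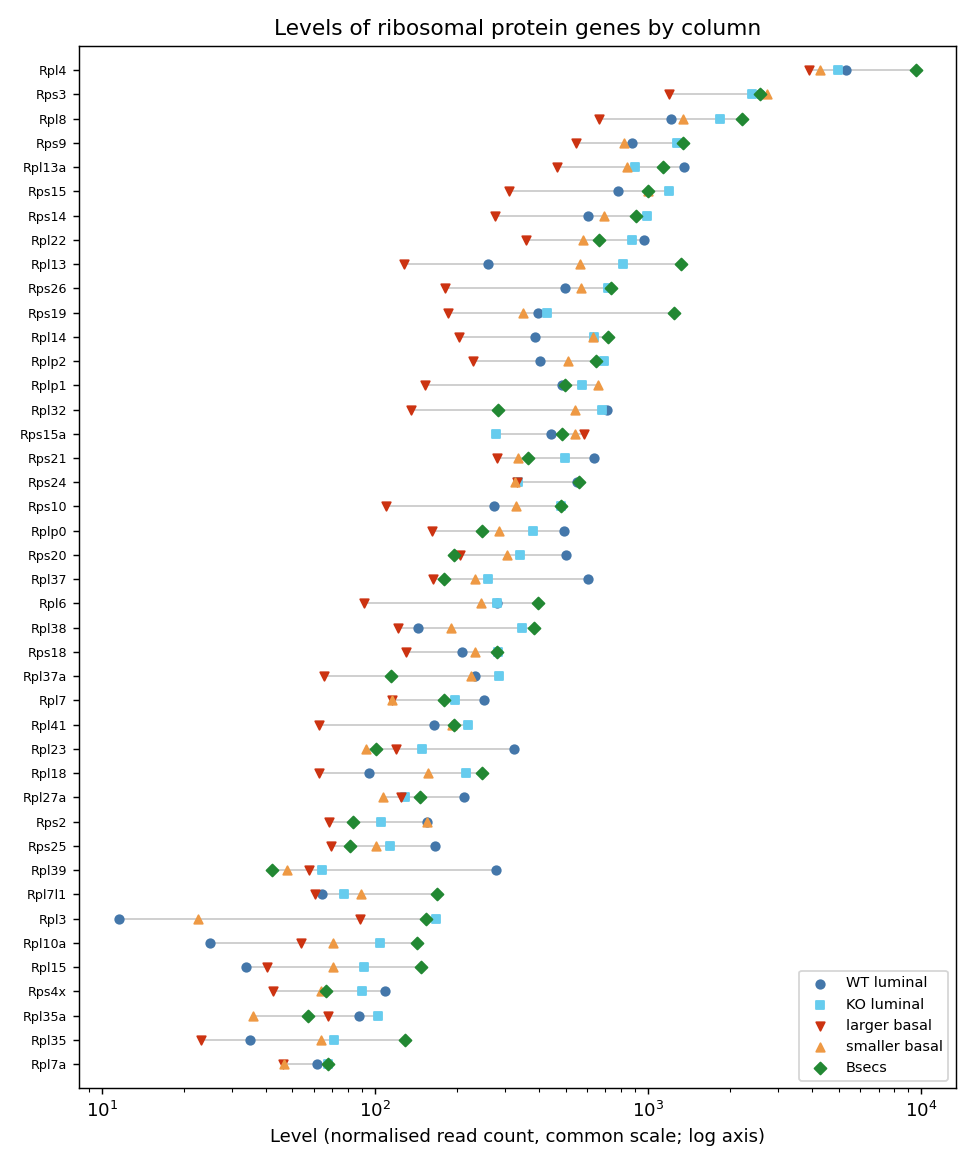
Levels of 42 of the 46 ribosomal protein genes with a mean level of at least 50 normalised reads (log axis), 1 row per gene, with 1 symbol per column and a grey line from the lowest to the highest. The downward triangles of the larger basal column are the leftmost symbol in 32 rows; Rps15a, where it is the rightmost, and Rpl3, where WT luminal cells are the leftmost, stand out.

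Of the small subunit, Rps3, at the mRNA entry channel, had 2577 normalised reads in WT luminal cells, 2402 in KO luminal cells, 1194 in the larger basal column, 2739 in the smaller and 2571 in Bsecs. Its level was close in 4 columns, and the larger basal column stood well below them. Rps15, whose tail reaches the decoding site, had 779, 1195, 312, 1004 and 1000 in the same order of columns, and Rps14, the gene lost in the human 5q syndrome, 604, 997, 277, 693 and 909. Rps19, the gene most often mutated in human Diamond-Blackfan anaemia, had 396, 426, 186, 349 and 1253, so Bsecs stood apart at the top and the larger basal column at the bottom. Rps6, the substrate of the S6 kinases, had 46.4, 42.6, 27.9, 39.8 and 92.7, with the same columns at both ends. Rpsa, also known as the laminin receptor precursor, had 41.1, 31.1, 26.0, 42.5 and 50.6. Rps15a went the other way, with 444, 278, 584, 542 and 486, highest in the larger basal column and lowest in KO luminal cells.

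Of the large subunit, Rpl4, which lines the peptide exit tunnel, had 5341 in WT luminal cells, 4983 in KO luminal cells, 3895 in larger basal, 4263 in smaller basal and 9574 in Bsecs. Rpl8, next to the peptidyl transferase centre, had 1215, 1834, 664, 1346 and 2211 in that order. Bsecs were the highest of the 5 columns for both. The stalk proteins, which recruit the elongation factors, were all lowest in the larger basal column: Rplp0 had 493, 379, 162, 284 and 247. Rplp1 had 486, 574, 153, 659 and 496. Rplp2 had 404, 689, 230, 512 and 649. The highest column differed between these partners, being WT luminal cells for Rplp0, the smaller basal column for Rplp1 and KO luminal cells for Rplp2. Rpl5 and Rpl11, which with 5S ribosomal RNA can bind the p53 regulator Mdm2, had at most 12 and 23 counts in any column, too few to order the columns. Neither had a unique window.

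Some members varied far more over the columns than others. Among the 46 with a mean level of at least 50, the SD of the log2 level (of level plus 1) was largest for Rpl3 (1.68), Rpl13 (1.33), Rpl39 (1.09), Rpl32 (1.01), Rps19 (0.99), Rpl10a (0.95), Rpl35 (0.94) and Rpl37a (0.88), and among the smallest were those of Rpl7a (0.27), Rpl27a (0.37), Rps24 (0.41) and Rps15a (0.42). Rpl3, a core 60S protein that reaches the peptidyl transferase centre, had 11.6 in WT luminal cells, 168 in KO luminal cells, 88.5 in the larger basal column, 22.6 in the smaller and 154 in Bsecs. Its 2 low columns do not share a cell type. Rpl39, another protein of the exit tunnel, had 278, 64.3, 57.7, 47.8 and 42.1, with WT luminal cells alone at the top. Rpl13 had 260, 812, 128, 563 and 1319. Rpl7a, the steadiest, had 61.6, 67.2, 46.2, 46.5 and 67.4. Rpl3 had 4.31% unique windows, Rpl39 13.5% and Rpl13 and Rpl10a none, whereas Rpl32 had 62.4%.

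The comparison of the basal columns gave higher values in the smaller column for most members. Folds were taken for members with a mean of at least 50 over the compared columns, as log2 of the ratio of values plus 1. Of the 39 members that reached it, 33 were higher in the smaller column and 6 lower, with a median log2 fold of 0.84 (lowest -0.44, highest 2.15), against 0.10 for all 5691 genes. At least 2-fold higher were 17 members and at least 2-fold lower were 0, where the share of all genes is 17.6% and 11.8%. The 40S and 60S medians were 0.84 and 0.85, and that of the 11 largely unique members 0.70. After subtraction of the median of genes of like coding GC and coding length, the median of the members was 0.32.

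The largest ratio was that of Rpl13, with 424 against 133 counts, 4.46-fold higher after normalisation (95% counting interval 3.66 to 5.46). Rplp1 was 4.37-fold higher (3.65 to 5.25), Rpl32 4.05-fold (3.34 to 4.94) and Rpl37a, a zinc-binding 60S protein, 3.50-fold (2.63 to 4.71). Rps3 was 2.33-fold (2.17 to 2.50) higher. Rpl4 differed by 1.11-fold (1.06 to 1.16). Among those lower in the smaller column, within counting error, were Rpl23, 1.27-fold (0.936 to 1.72), and Rpl27a, 1.15-fold (0.862 to 1.53).

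Bsecs against the larger basal column gave the widest gap of the 6 comparisons. Of 47 members, 43 were higher in Bsecs, with a median log2 fold of 1.20 (lowest -0.26, highest 3.36) against 0.08 for all 6080 genes. At least 2-fold higher were 27 and at least 2-fold lower 0, where the share of all genes is 21.4% and 17.6%. All 11 largely unique members were higher, 8 of them at least 2-fold, with a median of 1.30. Centred on genes of like GC and length, the median of all 47 was 0.77, and on totals without Rn45s every log2 fold shifted by -0.36. Rpl13 had 1252 counts against 133, 10.4-fold higher (8.65 to 12.5). Rps19, with 1189 and 193 counts, was 6.78-fold higher (5.82 to 7.93), and Rpl35, at the mouth of the exit tunnel, 5.64-fold (3.62 to 9.13). Rps10, in human cells a target of the ubiquitin ligase ZNF598 on collided ribosomes, was 4.41-fold higher (3.58 to 5.46). Rps15a was 1.20-fold lower (1.06 to 1.35), and Rpl35a, Rpl23 and Rps20 lay within counting error of no difference.

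Against the smaller basal column the gap was small. The median over 44 members was 0.36, against 0.04 for all genes, with 8 at least 2-fold higher and 0 lower, where the share of all genes is 18.4% and 20.0%. That median was 0.17 on totals without Rn45s and 0.18 over the 11 largely unique members. Rpl3 was 6.76-fold higher in Bsecs (4.08 to 11.9), Rps19 3.56-fold (3.11 to 4.08), Rpl13 2.33-fold (2.08 to 2.60) and Rps6 2.31-fold (1.51 to 3.62). Lower in Bsecs were Rpl37a, 1.98-fold (1.55 to 2.54), Rpl32, 1.93-fold (1.65 to 2.26), Rps2, another protein of the entry channel, 1.88-fold (1.40 to 2.53), and Rps20, another target of that ligase, 1.57-fold (1.29 to 1.92). The comparisons of Bsecs share the Bsecs column, and those with the larger basal column share that column, so they are not independent of each other.

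In luminal cells the members had a median fold near 0 between the KO and WT columns. Single members lay far apart, but their spread was near that of all genes. The quartiles of the log2 fold were -0.40 and 0.60 for members and -0.56 and 0.57 for all genes. The median log2 fold of 49 members was 0.09, against 0.00 for all 6962 genes. It was 0.01 on totals without Rn45s and -0.08 over the 11 largely unique members. At least 2-fold higher in the KO column were 7 members and at least 2-fold lower 4, where the share of all genes is 11.9% and 11.6%. None of the largely unique members was among them. Rpl3 had 232 counts in the KO and 13 in the WT column, 14.2-fold higher (8.15 to 27.1). Rps16, whose tail touches the P-site tRNA, had 102 and 14 counts, 5.80-fold higher (3.31 to 11.0), Rpl10a, of the L1 stalk, 4.13-fold (2.74 to 6.43) and Rpl13 3.08-fold (2.70 to 3.51). Rpl39 had 89 counts against 311, 4.39-fold lower (3.45 to 5.62), and Rpl22l1 24 against 81, 4.24-fold lower (2.66 to 6.99). Rpl37 was 2.36-fold lower (2.07 to 2.69) and Rpl23, a 60S protein that can bind Mdm2, 2.21-fold (1.86 to 2.63).

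Bsecs and the luminal columns were close in the members' median level. Over KO luminal cells the median of 49 members was 0.05, against 0.13 for all 6654 genes and 0.11 for the 11 largely unique members. Of the 49, 3 were at least 2-fold higher and 2 lower, where the share of all genes is 23.4% and 21.0%. Rps19 was 3.02-fold higher (2.74 to 3.34), Rpl7l1 2.24-fold (1.75 to 2.89), Rps6 2.24-fold (1.59 to 3.17) and Rpl4 1.98-fold (1.92 to 2.04). Rpl37a was 2.42-fold lower (1.95 to 3.01) and Rpl32 2.34-fold lower (2.04 to 2.69). Over WT luminal cells the median of 48 members was 0.18, the same as over the 11 largely unique ones, against 0.13 for all 6352 genes. Of the 48, 10 were at least 2-fold higher and 6 lower, where the share of all genes is 25.3% and 20.7%. Rpl3 was 13.8-fold higher (7.84 to 26.6), Rpl10a 5.98-fold (3.96 to 9.33), Rpl13 5.30-fold (4.66 to 6.04) and Rpl15, a core 60S protein, 4.53-fold (3.15 to 6.67). Rpl39 was 6.32-fold lower (4.54 to 9.02), Rpl37 3.22-fold (2.72 to 3.83), Rpl23 3.08-fold (2.45 to 3.90) and Rps20 2.46-fold (2.08 to 2.92). The medians turned to -0.16 and -0.14 on totals without Rn45s, so no direction is read between Bsecs and luminal cells for the members as a group.

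**Figure D3:**
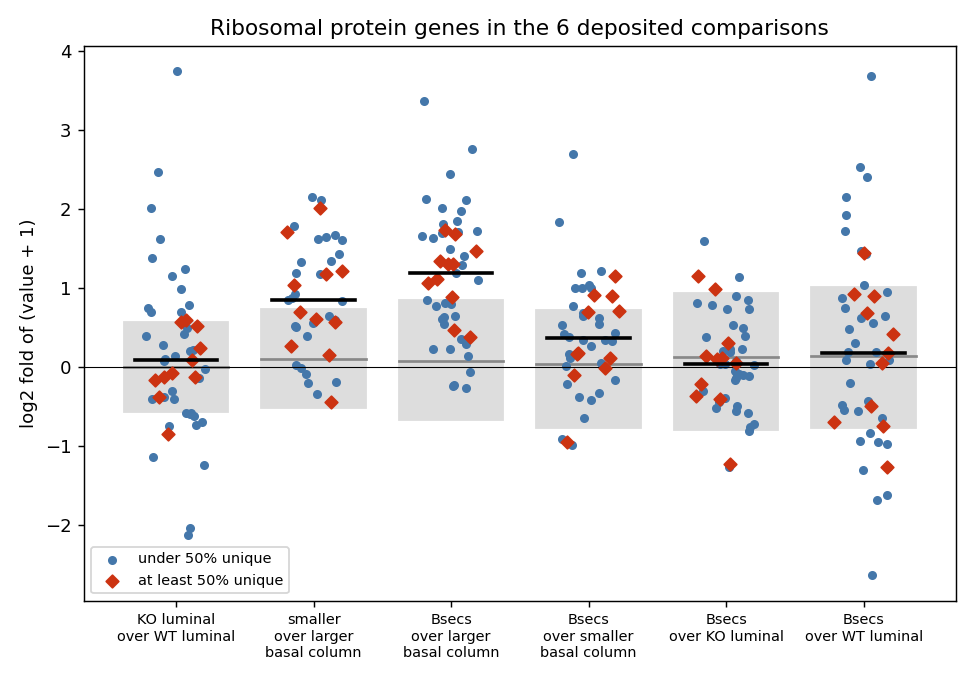
Log2 fold of each ribosomal protein gene with a mean value of at least 50 in the 6 deposited comparisons (diamonds: at least 50% unique windows, circles: the rest); the black bar is the members' median, the grey box and line the quartiles and median of all genes at that level. The members' median lies above the upper quartile of all genes in the 2 comparisons with the larger basal column (0.84 and 1.20) and within the box in the other 4.

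No member passed the authors' test after adjustment in any comparison, while an added edgeR test called members in some. The authors' deposited tables give a p for 77 members per comparison, and with Benjamini-Hochberg adjustment over all genes 0 members were under 0.05, where the share of all genes was 0.0882% for KO over WT luminal cells, 0.0274% for the basal columns, 0.480% and 0.759% for Bsecs over the larger and smaller basal column, and 0.0405% and 0.210% for Bsecs over KO and WT luminal cells. Unadjusted p in the authors' deposited table was under 0.05 for 4 members of the luminal comparison (Rpl3, Rpl13, Rpl39 and Rps16), where the share of all genes was 3.74%. It was under 0.05 for 4 of the basal comparison (Rpl13, Rpl32, Rplp1 and Rps15; all genes 3.09%), 2 of Bsecs over the larger basal column (Rpl13 and Rps19; all genes 4.61%), 0 of Bsecs over the smaller (4.91%) and over KO luminal cells (3.82%), and 1 of Bsecs over WT luminal cells (Rpl3; 4.29%). The smallest adjusted p from the authors' deposited table was 0.185, for Rpl3 in the luminal comparison. These deposited p-values compare 1 column with 1 column and rest on no spread between replicates. A member that did not pass is therefore not shown to be unchanged. An exact test in edgeR on the recovered counts, with a dispersion assumed at 0.16 since the columns carry none, called 1 member in the luminal comparison (Rpl3), 0 between the basal columns, 2 for Bsecs over the larger basal column (Rpl13 and Rps19), 1 over the smaller (Rpl3), 0 over KO luminal cells and 5 over WT luminal cells (Rpl3, Rpl10a, Rpl13 and Rps27a higher, Rpl39 lower). Of all genes this test called 1.01% higher and 0.523% lower in the luminal comparison, and 0.781% and 1.62% between the basal columns. For Bsecs it called 3.49% higher and 5.02% lower over the larger basal column, 5.24% and 4.96% over the smaller, 2.89% and 8.26% over KO luminal cells, and 5.22% and 8.59% over WT luminal cells.

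Within the set, folds climbed with the GC content of the coding sequence in 4 of the 6 comparisons. Across 49 members in the luminal comparison, Spearman's rho between log2 fold and GC content of the coding sequence was 0.49, and across 6617 genes with a coding sequence 0.38. Between the basal columns it was 0.51 over 39 members and 0.40 over 5426 genes. For Bsecs over the larger basal column it was 0.45 over 47 members and 0.20 over 5813 genes, and for Bsecs over WT luminal cells 0.32 over 48 members and 0.04 over 6060 genes. In the remaining comparisons the members showed no such trend, with -0.00 over members and -0.12 over genes for Bsecs over the smaller column, and 0.02 and -0.21 for Bsecs over KO luminal cells. These values are descriptions across genes of the same pair of columns, which share libraries and amplification. The members at least 2-fold lower in KO luminal cells were the AT-rich Rpl22l1 (39.7% GC) and Rpl39 (45.1%), but also Rpl23 (49.0%) and Rpl37 (55.0%). Rpl3, with the largest fold there, had 51.6%. Rpl13 (58.5% GC) was higher in the numerator column of all 6 comparisons, those without a GC trend included. Whether amplification or sequence composition produced these folds was not tested.

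**Figure D4:**
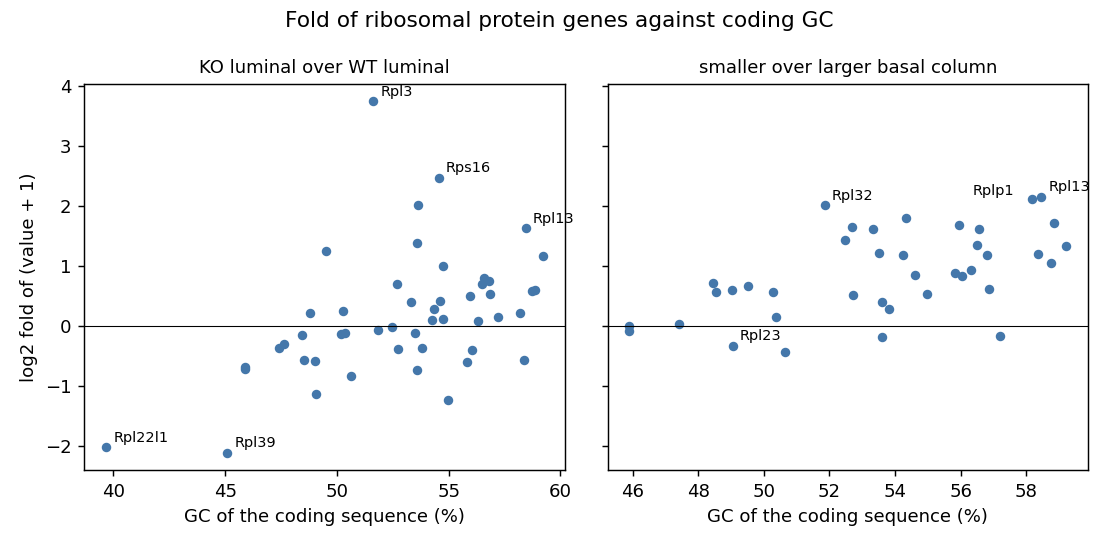
Log2 fold against GC content of the coding sequence (percent) for the members with a mean value of at least 50, in the luminal (left) and basal (right) comparison. Points climb to the right in both panels (rho 0.49 and 0.51), with Rpl3 far above the others at middle GC in the luminal panel and Rpl22l1 and Rpl39 at the lower left.

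Members with and without a tract near their annotated start were set side by side. The median log2 fold was 0.84 with a tract (15 members) and 1.01 without (14) between the basal columns. It was 1.45 (20 members) and 0.997 (16) for Bsecs over the larger basal column, and 0.31 (22) and -0.12 (16) in the luminal comparison. Bsecs had 0.59 with a tract (18) and 0.02 without (15) over the smaller basal column, 0.21 (21) and -0.22 (17) over KO luminal cells, and 0.65 (22) and -0.49 (15) over WT luminal cells. The median was thus higher with a tract in 5 of the 6 comparisons, which share columns, and lower between the basal columns. No test of this was made.

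The paralogue pairs were balanced differently in different columns. Rpl22l1, the paralogue of the RNA-binding 60S protein Rpl22, made up 6.96% of the counts of the pair in WT luminal cells (Clopper-Pearson 95% interval 5.56 to 8.58), 1.94% (1.24 to 2.87) in KO luminal cells, 8.11% (5.65 to 11.2) in larger basal, 3.55% (2.04 to 5.70) in smaller basal and 4.12% (2.73 to 5.94) in Bsecs. WT luminal cells and the larger basal column were thus at the upper end with overlapping intervals. Rpl22 itself had 967, 879, 360, 578 and 662 normalised reads in the order WT luminal, KO luminal, larger basal, smaller basal and Bsecs, and Rpl22l1 72.3, 17.3, 31.7, 21.2 and 28.4. Rpl7l1, the paralogue of Rpl7, made up 20.3% (16.3 to 24.9) of its pair in WT luminal cells, 28.2% (23.7 to 33.0) in KO luminal cells, 34.4% (27.6 to 41.8) in larger basal, 43.5% (35.5 to 51.7) in smaller basal and 48.5% (43.0 to 54.0) in Bsecs. Its unique share was 78.1% and that of Rpl7 22.5%, and the part of shared sequence in these shares was not tested. Of the paralogues outside the rule, Rpl36al had 232, 301, 92.3, 276 and 289 and Rps27l, a target of p53, 197, 125, 66.3, 106 and 57.9. Rps3a1 had 246, 135, 135, 142 and 198, while Fau had at most 34 counts.

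Some ribosomal protein genes carry small nucleolar RNAs in their introns, and 27 of these were listed in the tables, in 18 member genes. Only Snord32a, inside Rpl13a, reached 50 counts in a column, with 36 in WT luminal cells, 878 in KO luminal cells, 14 in larger basal, 184 in smaller basal and 564 in Bsecs. Its host Rpl13a, which in human cells also silences inflammatory mRNAs, had 1518, 1245, 482, 632 and 1077 counts in the same order. The small RNA and its host therefore had different orders of columns. The other 26 had at most 34 counts.

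Other genes of the translation machinery were summarised from lists. Of 8 elongation genes, all with a mean value of at least 50, 4 were at least 2-fold higher and 0 lower in the smaller than in the larger basal column (median log2 fold 0.87), where the share of all genes is 17.6% and 11.8%. In Bsecs over the larger column 6 were at least 2-fold higher and 0 lower (1.40), where it is 21.4% and 17.6%. Eef2, which moves the ribosome along the mRNA, had 8064, 9308, 2981, 6808 and 8445 normalised reads from WT luminal cells to Bsecs, with the larger basal column lowest. Gnb2l1 (RACK1), a scaffold on the 40S head, had 3324, 2724, 1417, 2925 and 2761. Gnb2l1 was chosen after its values were seen. Neither is a member, and both had their lowest value in the same column as most members, but 2 picked genes give no support to that pattern. Other genes of the lists were mixed. Most of the 8 elongation genes were lowest in larger basal, Eef1d (404) and Tpt1 (86.5) among them. Eef1b2 was lowest in smaller basal (745) and Eif5a in WT luminal cells (704), while Naca was highest in larger basal (381). Of 36 initiation genes, 35 reached that level between the basal columns, with 8 at least 2-fold higher in the smaller and 0 at least 2-fold lower (median 0.41). In Bsecs over the larger column 13 of 34 were at least 2-fold higher and 0 lower (0.59). In Bsecs over KO luminal cells 18 of 34 were at least 2-fold higher and 1 lower (1.03), where the share of all genes is 23.4% and 21.0% and the members' median was 0.05. Eif4a1, the cap-dependent helicase, had 1134 counts in Bsecs and 368 in KO luminal cells, 4.62-fold higher (4.11 to 5.21). Of 76 mitochondrial ribosomal protein genes, at a threshold of 2-fold 7 of 24 at that level were higher and 2 lower between the basal columns (median 0.48). In KO over WT luminal cells 0 of 43 were higher and 11 lower by at least 2-fold (-0.38), where the share of all genes is 11.9% and 11.6%. Other TOP transcripts outside the set had medians of 0.40 between the basal columns and 0.61 for Bsecs over the larger one. That list shares genes with the elongation and initiation lists, Eef2, Eef1b2 and Tpt1 among them, so it is not a separate group. In the same 2 comparisons the medians were 0.18 and 0.10 for TOR and TOP regulators. For quality control and checkpoint genes they were 0.54 and 0.03. Npm1, a nucleolar protein with a TOP mRNA, was 4.76-fold higher in Bsecs than in larger basal cells (4.51 to 5.02), and Cdkn1a, the cell cycle inhibitor p21, 21.9-fold (19.2 to 25.1). Unique coding windows made up 3.68% for Eif4a1, 21.6% for Npm1 and 100% for Cdkn1a. The part of shared sequence in these folds was not tested. By adjusted p from the authors' deposited tables, 0 genes of these lists were under 0.05 in any comparison, while unadjusted p was under 0.05 for 0 to 4 genes over all lists of a comparison.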

How the data were processed

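RNA was extracted with TRIzol, amplified with the Ovation RNA-seq system and sequenced, per the labels' protocols. Per the submitters' processing notes, STAR, DESeq and mm9 were used, and no source used here states versions, the read counter, annotation or strand settings. Per the file headers, the authors deposited for each of 6 comparisons the mean signal (normalised read count) of either group, their ratio (fold change), its log2 and an unadjusted p-value. The deposited ratio and log2 columns were not used, and folds were computed from the means.

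The tables have 24000 rows, of which 27 have an unusable symbol. They hold 0 columns per library and 0 of other origin. Every deposited mean was a whole multiple of 1 step per column (100% of values within 0.01 of a count), so counts were recovered by dividing by the step. Matching counts across tables gave 5 columns. The tables hold no spread between libraries. Since each column has 1 step, DESeq had 1 column of counts per group, so its p-values rest on no spread between replicates. No source used here states what DESeq used in place of that spread. Replicates are not described as separate animals or cultures.

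Folds are log2 of (value + 1) ratios for genes whose mean value reached 50. Ratios have 95% intervals from the exact binomial (Clopper-Pearson) limits of how reads divide. Calls used the p-values the authors deposited, adjusted over all genes by Benjamini-Hochberg, at 0.05. edgeR's quasi-likelihood test needs replicates and was not run. An exact test in edgeR 4.0.16 (R 4.3.3) with an assumed dispersion of 0.16 was added and called 226 to 1976 genes per comparison. Steps across genes were tested on simulated counts. Other steps used Python 3.11.15, pandas 2.3.3 and SciPy 1.17.1.

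Coding windows of 50 bases were matched against the transcripts of all other genes in GENCODE M21, and start sites came from RefSeq. Both are of GRCm38, not the authors' build, so no coordinate of the authors' is given. Named members were the 4 largest log2 folds in each direction per comparison, the 8 largest and 5 smallest SDs of log2 level, the 5 highest and lowest levels per kb, members under 10 counts, and members named for their role. Some members and related genes are not reported here by name; members among them stay in all counts and medians. Members and lists were chosen with earlier results of these data known. The list of snoRNA hosts was written from general knowledge and kept where RefSeq places the snoRNA inside the host.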

Additional observations from a re-analysis of the deposited data

How the results depend on the processing

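No paired analysis was possible because the tables hold no value per library, and leaving out each replicate was not run for the same reason. Of 42 medians recomputed under another setting, 34 kept their direction and stayed within the counting interval of the middle member, 5 moved beyond it and 3 turned. That interval is wide, and some of the 34 still differed by over 1.5 times. The median for Bsecs over the smaller basal column (0.36) was 0.17 on totals without Rn45s and 0.18 over the 11 largely unique members, that for Bsecs over KO luminal cells (0.05) was 0.14 with no level floor and 0.11 over the largely unique members, that for KO over WT luminal cells (0.09) was 0.14 with no level floor, and that for Bsecs over the larger basal column (1.20) was 0.77 when centred on genes of like GC and length. The shift of all folds with totals without Rn45s ran from -0.08 to -0.36. On that scale the members' median was 0.011 for KO over WT luminal cells, -0.16 for Bsecs over KO luminal cells and -0.14 for Bsecs over WT luminal cells; 3 members were at least 2-fold higher and 3 lower in Bsecs over the smaller basal column, 1 higher over KO luminal cells and 12 lower over WT luminal cells. With no level floor, 17 were higher and 7 lower in the luminal comparison, 29 and 3 between the basal columns, 1 lower in Bsecs over the larger basal column, 8 lower over the smaller, 8 higher over KO luminal cells, and 23 higher over WT luminal cells with a median of 0.54. The shares of all genes past 2-fold given above are for the main setting. Counts of members past 2-fold under either other setting are therefore not read as particular to the members. Without snoRNA hosts the median was 0.22 in the luminal comparison and 0.36 for Bsecs over WT luminal cells. Shares of all counts, Rn45s included, were 1.18% in WT luminal cells, 1.09% in KO luminal cells, 0.655% for larger basal, 0.944% for smaller basal and 0.936% in Bsecs. These shares include a denominator that Rn45s sets. A pseudocount of 0.1 moved no median beyond that interval.

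The 3 settings added after seeing the data were the 11 largely unique members, with a median of -0.077 in the luminal comparison, the centring on genes of like GC and length, with 0.32 between the basal columns, and edgeR with an assumed dispersion, with 1 member in the luminal comparison, 2 in Bsecs over the larger basal column, 1 over the smaller and 5 over WT luminal cells. The cause of each change was not tested. At 2036681 to 3840462 counts per column, members with under 10 counts cannot be ordered, and with 1 column per group no spread between mice is known.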
